A study of Mus with 4 samples.

Results

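The intermediate filament genes examined here are vimentin (Vim), desmin (Des), nestin (Nes), the light, medium and heavy neurofilament subunits (Nefl, Nefm and Nefh), keratins 8, 18 and 19 (Krt8, Krt18 and Krt19) and lamin A/C (Lmna). They were chosen by what their proteins are, with earlier results of these data known, and are 10 of 26893 gene symbols on the array. Every probe that the deposited table annotates with one of these 10 symbols was taken. This gave 19 of the 56605 probes on the array, on 28 of its 59305 spots. Total RNA came from an immortalized murine podocyte cell line that had been differentiated for 10 to 14 days at 37 °C without interferon-γ. The cells of the Venus group were given a lentivirus for Venus, a fluorescent protein used as the control, and those of the OASIS group a lentivirus for the active, N-terminal form of OASIS, the transcription factor encoded by Creb3l1. Both groups were exposed to vector for 24 h at a multiplicity of infection of 200 to 500 in medium with polybrene at 8 μg/mL and serum, and RNA was taken 48 h after the vector was added. There were 2 samples in each group, each on its own 1-colour array. The labels do not say whether the samples of a group came from separate cultures, so that p-values measure only the spread between these samples, and they rest on a single cell line at a single time.

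Intermediate filaments are built from coiled-coil rod proteins that pair in parallel and then join into apolar ropes. Type III proteins such as vimentin and desmin can form filaments by themselves, whereas type I and type II keratins must pair with each other, and keratin 8 with keratin 18 is the usual pair of simple epithelia. Neurofilament subunits and nestin are type IV proteins, and the A and B type lamins form the meshwork under the inner nuclear membrane. Podocytes in the glomerulus are epithelial cells that carry vimentin and nestin, and desmin is a widely used marker of podocyte injury in rodents.

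All 4 arrays shared 1 slide and 1 scan. Between 33938 and 34418 spots per array were well above background and 0 were saturated. Values are given as the background-corrected intensity of each array, in arbitrary scanner units, and as normalised log2 intensity, which is the log2 intensity minus the 75th percentile of its array. The level of a probe also depends on its sequence, so that levels of different probes are not compared. A probe entered the test if the 2 arrays of either group read it as well above background, and it passed the threshold of the study at a fold over 2.0 or under 0.5 together with an adjusted p under 0.1 (limma, Benjamini-Hochberg adjustment over the 31598 probes tested). Of all probes tested, 8.36% passed, 5.89% higher and 2.47% lower with OASIS. Precision is limited by the number of arrays: with 2 on each side, the smallest two-sided p of an exact permutation test is 0.333. The probe for Creb3l1 had a log2 fold change of -0.17 (limma adjusted p = 0.298); whether it can read the N-terminal construct was not analysed here. Of 16 podocyte markers, 12 were well above background on both arrays of each group, among them Synpo, Cd2ap, Actn4 and Kirrel, whereas Nphs1, which encodes the slit diaphragm protein nephrin, Ptpro and Tcf21 were among those that were not. Genes of marker lists were called by their brightest probe. Of the 12 podocyte markers tested, 2 passed as higher (Wt1 and Cd2ap) and 1 as lower (Plce1). Probes of a gene differed here: the other Wt1 probe had a log2 fold change of -0.16 the other Cd2ap probes -0.37 and 0.31 and the other Plce1 probes 0.047 and -0.83, none past the threshold, and a second Kirrel probe passed as lower at -1.10. Detected markers numbered 2 of 8 for endothelium and 6 of 8 for leukocytes in each group, and 5 of 9 with Venus and 6 of 9 with OASIS for mesangial cells and fibroblasts. Among these lists Plvap, of endothelium, and Pdgfra, of mesangial cells and fibroblasts, passed as higher, and 0 passed as lower. Pdgfra was well above background with OASIS only, and so entered the test through its OASIS arrays. By its brightest probe it was at least 7.965-fold higher. By its other tested probe, also well above background with OASIS only, it was at least 1.72-fold higher.

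The neurofilament genes were lower in the samples labelled OASIS. Probes of all 3 subunit genes passed the threshold, for Nefl by at least 4.17-fold, for Nefm by a log2 fold change of about -1.3 on each of its measured probes, and for Nefh on 1 of its 2 probes. Nefl encodes the light subunit, on which neurofilament assembly depends, and Nefm and Nefh the medium and heavy subunits, whose long tails project from the filament. Nefl and Nefm lie on chromosome 14 in band qD1, and Nefh on chromosome 11 in band qA1. In neurons the 3 proteins set axon calibre.

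The Nefl probe A_55_P2810270 had intensities of 56.8 and 56.4 on the Venus arrays and of 11.3 and 10.4 on the OASIS arrays. Both OASIS arrays lay below both Venus arrays, and neither was well above background, so that only a bound on the fall can be given. Normalised log2 intensity was -4.08 ± 0.072 (SD, n = 2) with Venus and -6.47 ± 0.095 (SD, n = 2) with OASIS. Nefl was at least 4.17-fold lower. The probe entered the test through its Venus arrays only. Its limma adjusted p of 0.00228 belongs to the fitted log2 fold change of -2.39, which uses OASIS signal not well above background, and not to the bound. The bound sets the mean of the Venus arrays against, on each OASIS array, whichever is higher, the Nefl value itself or the dimmest signal that counted as well above background there. The second Nefl probe, A_51_P168646, was not well above background on any array and was not tested, although it is annotated to the same RefSeq transcript.

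Nefm is read by 4 probes. The probe A_55_P2723589 had intensities of 343.7 and 305.9 with Venus and of 169.2 and 105.9 with OASIS, and A_51_P145220 had 148.8 and 121.7 with Venus and 65.4 and 48.4 with OASIS. On both probes the groups did not overlap, and the second OASIS sample was the lower of the pair. The log2 fold change was -1.28 (SE = 0.26 and adjusted p = 0.0327 by limma) for the first and -1.27 (SE = 0.22 and adjusted p = 0.0223 by limma) for the second, so that the log2 ratio between the 2 probes moved by 0.018. The other Nefm probes, A_52_P596178 and A_55_P2720341, carry Ensembl annotations and read between 2.91 and 3.19 on every array, not well above background.

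Both Nefh probes lay lower on both OASIS arrays than on both Venus arrays. The probe A_51_P300657 had intensities of 38.5 and 35.7 with Venus and of 15.0 and 15.8 with OASIS, a log2 fold change of -1.28 (SE = 0.12 and adjusted p = 0.007 by limma). The probe A_55_P2053181 had 79.7 and 78.6 with Venus and 35.7 and 50.6 with OASIS, a log2 fold change of -0.90 (SE = 0.19 and adjusted p = 0.0347 by limma), short of the 2-fold limit. The spread between its OASIS arrays, an SD of 0.34 on the log2 scale, was wider than the 0.039 of the first probe. Without OASIS replicate 2 it had -1.15 and passed, and without OASIS replicate 1 it had -0.66 and did not. It passed in 1 of the 15 alternatives.

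The neurofilament signals were dim, and their fold depended on how the intensities were processed. Normexp correction was run on the median spot intensity and adds an offset of 50, so that input and correction changed together. After it, none of the 4 probes reached the 2-fold limit. Log2 fold changes were -0.61 for Nefl, -0.95 and -0.72 for Nefm and -0.33 for Nefh, with limma adjusted p-values between 0.00306 and 0.0395. The brighter Nefm probe, A_55_P2723589, also no longer passed without Venus replicate 1 (-1.15, adjusted p = 0.128) or without OASIS replicate 2 (-0.94, adjusted p = 0.048). Of 10 neuronal markers, 5 were well above background on both Venus arrays and 4 on both OASIS arrays, while Map2, Rbfox3, Dcx, Stmn2 and Gap43 were not in either group. The summed level of the list, each gene by its brightest probe on the linear scale relative to the 75th percentile, was 10.6 to 11.3 on the Venus arrays and 8.4 to 9.04 on the OASIS arrays, and 0 of the 5 markers tested passed the threshold, though 2 had a lower level at an adjusted p under 0.1, as did 19.7% of all probes tested. Most of that sum is 1 gene, Snap25, at a log2 fold change of -0.41. Tubb3 had -0.39 and Syn1 -0.30, while Syp had 0.19 and Elavl4 0.23. Their part in the fall was not tested. In RNA from a whole culture, fewer cells with a transcript and less of it per cell cannot be told apart.

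**Figure D1:**
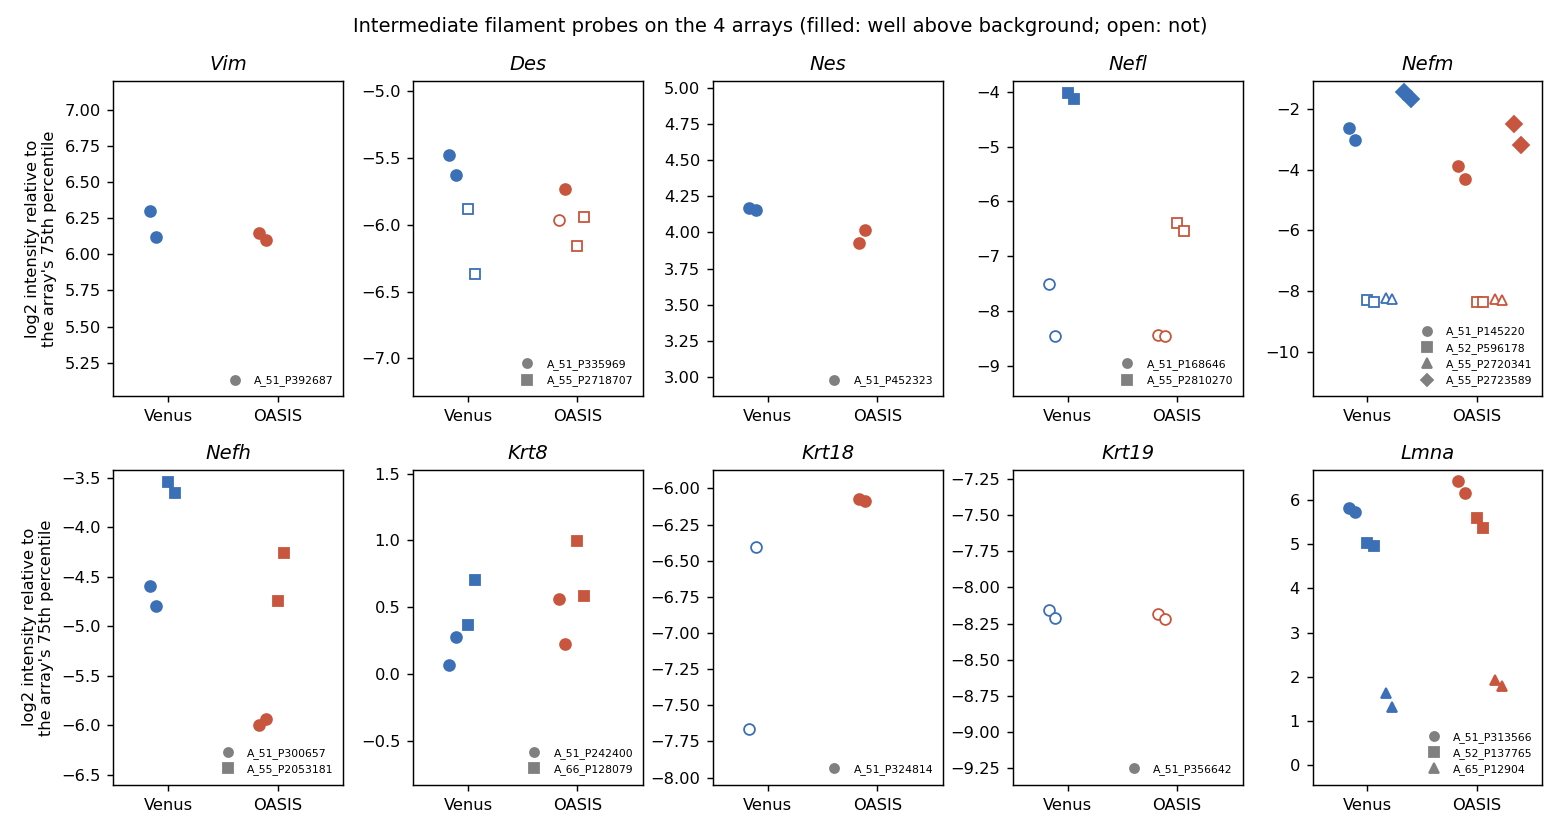
Normalised log2 intensity (y axis, log2 intensity minus the 75th percentile of the array) of each intermediate filament probe on the 2 Venus (blue) and 2 OASIS (red) arrays, in a panel per gene with its own axis and a symbol per probe. Filled symbols are well above background and open ones are not. The Nefl, Nefm and Nefh probes that are above background with Venus lie lower with OASIS, and the 3 Lmna probes lie higher.

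Nestin, the large type IV protein that podocytes share with neural progenitors, differed little. Its probe, on chromosome 3 in band qF1, had intensities of 16670 and 17590 with Venus and of 14530 and 15670 with OASIS. Both OASIS arrays lay below both Venus arrays, by 0.14 on the log2 scale at the nearest, as did 39.4% of all probes tested. The log2 fold change was -0.19 (SE = 0.10 and adjusted p = 0.231 by limma), with a 95% confidence interval from -0.46 to 0.077, which leaves out a 2-fold change in either direction.

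Vimentin, the main type III filament protein of mesenchymal cells and of podocytes, had intensities of 72980 and 68550 with Venus and of 67760 and 66280 with OASIS. The groups overlapped. Its probe, on chromosome 2 in band qA1, had a log2 fold change of -0.086 (SE = 0.12 and adjusted p = 0.622 by limma), and the 95% confidence interval, from -0.39 to 0.22, leaves out a 2-fold change. The sign turned, to 0.0052, without Venus replicate 1.

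Desmin, the type III protein of muscle, was close to background. Its probe A_51_P335969, on chromosome 1 in band qC4, had intensities of 20.8 and 20.0 with Venus and of 15.3 and 18.2 with OASIS, and it was well above background on both Venus arrays and on 1 of the 2 OASIS arrays. The groups did not overlap. The log2 fold change of -0.30 (SE = 0.13 and adjusted p = 0.17 by limma) did not pass the test, with a 95% confidence interval from -0.65 to 0.054. The other desmin probe, A_55_P2718707, read between 11.9 and 15.8 and was not well above background on any array. Of 9 muscle markers, Acta1, Actc1 and Tnnt2 were detected in each group, and Myod1, Myog, Myf5, Tnnt1, Myh3 and Ckm were not. The summed level of that list was 10.2 to 10.3 with Venus and 8.3 to 8.83 with OASIS, most of it Actc1, at a log2 fold change of -0.30.

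Of Krt8, Krt18 and Krt19, Krt8 alone was well above background on all 4 arrays. Krt8 encodes the type II partner of the pair, and its 2 probes, on chromosome 15 in band qF3, differed little between the groups. The probe A_66_P128079 had intensities of 1196 and 1608 with Venus and of 1903 and 1452 with OASIS, and A_51_P242400 had 967.5 and 1198 with Venus and 1413 and 1128 with OASIS. On both probes the groups overlapped, with the first Venus array the lowest and the first OASIS array the highest. The log2 fold changes were 0.25 (95% confidence interval from -0.27 to 0.78, limma adjusted p = 0.396) and 0.22 (from -0.21 to 0.66, limma adjusted p = 0.372).

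Krt18, the type I partner of Krt8 and its neighbour in the same band, has 1 probe, which read 4.56 and 11.7 with Venus and 14.2 and 14.2 with OASIS. Both OASIS arrays were well above background and above both Venus arrays, which were not and which lay apart, at normalised log2 intensities of -7.67 and -6.41. Krt18 was at least 1.03-fold higher by its bound, and it did not pass the test (limma adjusted p = 0.168). Without Venus replicate 2 the fitted log2 fold change was 1.59 and passed, and without Venus replicate 1 it was 0.33. Krt19, a type I keratin of ducts and tubules, read between 3.25 and 3.34 on the 4 arrays, not well above background on any. Of 12 tubular and parietal epithelial markers, 6 were detected in each group. Cdh1 and Epcam, which encode adhesion proteins of epithelia, were not among them, and the summed level was 27.1 to 34.8 with Venus and 26.8 to 41.9 with OASIS. Most of that sum is Aqp1, a water channel, whose groups overlapped, at a log2 fold change of 0.082 (limma adjusted p = 0.876). The endocytic receptor Lrp2 was the only marker of that list to pass the threshold by its brightest probe, at a log2 fold change of 1.62 (limma adjusted p = 0.0148). Of its 5 tested probes 2 passed, at 1.62 and 1.68, and the other 3 had 0.012, -0.098 and -0.16.

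None of the 3 Lmna probes passed the threshold, with log2 fold changes between 0.39 and 0.52. Its protein products, lamins A and C, stiffen the nucleus and anchor chromatin at its edge. The gene is on chromosome 3 in band qF1, and its probe A_51_P313566 is printed on 10 spots of each array, which measures the error within an array. The 10 spots ranged from 50090 to 53920 and from 49780 to 54750 on the Venus arrays, and from 80470 to 85880 and from 63950 to 72770 on the OASIS arrays. No spot of an OASIS array was as low as any spot of a Venus array, and the OASIS arrays did not overlap each other. The coefficient of variation over spots was between 2.05% and 4.02% within an array. The 10 spots of an array are repeats of 1 sample and count as 1 value in the test.

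**Figure D2:**
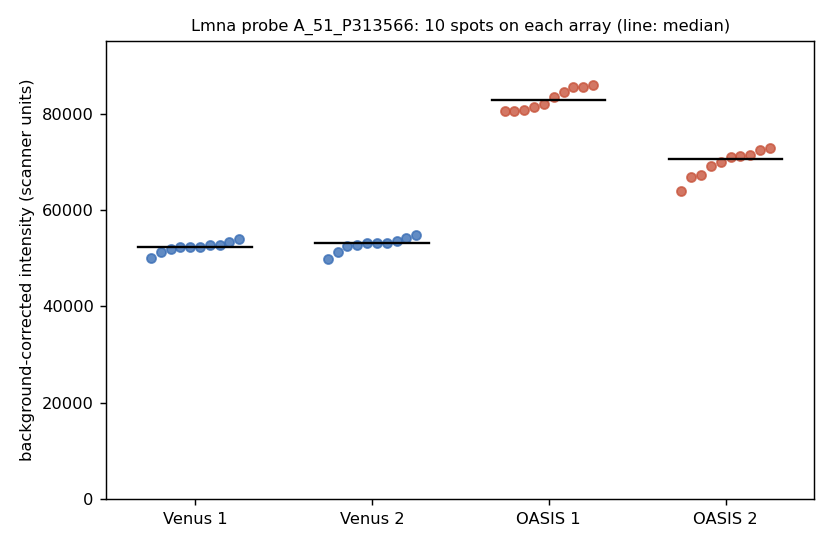
Background-corrected intensity (y axis, scanner units, from 0) of the 10 spots of Lmna probe A_51_P313566 on each array (x axis), with the median as a line. The medians were 52320 and 53120 with Venus, below the 82740 and 70520 with OASIS.

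By the mean of its spots, A_51_P313566 had a log2 fold change of 0.52 (SE = 0.13 and adjusted p = 0.0537 by limma). A_52_P137765, annotated like it to transcript variant 2, had intensities of 30210 and 30910 with Venus and of 46680 and 40160 with OASIS, a log2 fold change of 0.49 (SE = 0.13 and adjusted p = 0.0525 by limma). A_65_P12904, annotated to transcript variant 1, had 2840 and 2462 with Venus and 3641 and 3339 with OASIS, a log2 fold change of 0.39 (SE = 0.15 and adjusted p = 0.119 by limma). On each probe both OASIS arrays lay above both Venus arrays, as did 28.6% of all probes tested. The log2 ratios between probes of Lmna moved by 0.029 to 0.13, and whether the variants changed unequally was not tested. The 95% confidence intervals, from 0.17 to 0.88 for the first probe, leave out a fold of 2.

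**Figure D3:**
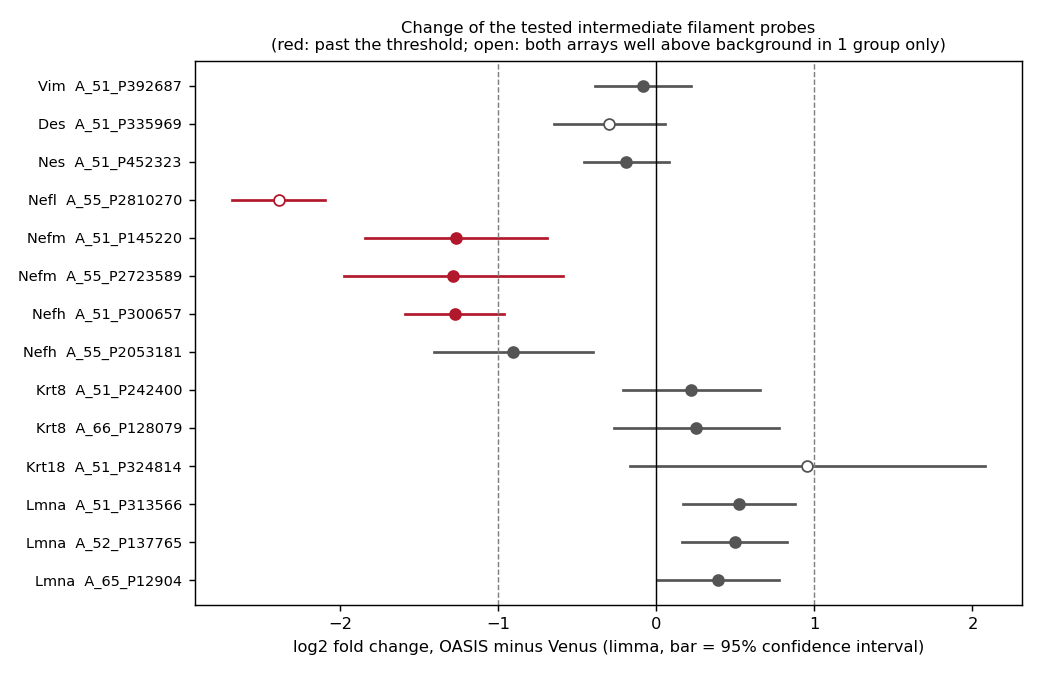
Log2 fold change between OASIS and Venus (x axis) of the 14 intermediate filament probes tested, with 95% confidence intervals from limma and dashed lines at 2-fold. Red marks the 4 probes past the threshold, all of neurofilament genes. Open points mark probes well above background on both arrays of only 1 group, for which the fitted value depends on signal near background, so that Nefl is read by its bound of 4.17-fold.

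Over the whole family, 14 of the 19 probes were tested, for 9 of the 10 genes. Those left out were 1 Nefl, 2 Nefm, 1 Des and the Krt19 probe. Of the 14, 4 passed the threshold as lower and 0 as higher, against 2.47% lower and 5.89% higher among all probes tested. By the values fitted on all 4 arrays no tested probe reached 2-fold higher, so that 0 higher holds there at any p. For Krt18, at a fitted 1.94-fold, only a bound can be read. Its fitted log2 fold change without Venus replicate 2 was 1.59. By the methods' t-test only 1 probe, of Nefl, passed as lower. With only probes well above background on all 4 arrays, which leaves Nefl out, 3 passed as lower, and 589 of 29492 probes did. An adjusted p under 0.1 with no limit on the fold was met by 7 of the 14, 2 of them higher (Lmna) and 5 lower (the neurofilament probes), where 36.7% of all probes met it, 17% higher and 19.7% lower. OASIS arrays lay wholly above Venus arrays on 4 of the 14 and wholly below on 7, where 28.6% and 39.4% of all probes tested did. The Nefl and Des probes were tested through their Venus arrays only and the Krt18 probe through its OASIS arrays only. The median log2 fold change of the tested probes was -0.14, beside -0.069 for all probes tested. By the brightest probe of each gene, Nefl and Nefm passed as lower, and 1.85% of all genes did. A fitted fall at least as large as those of the 2 Nefm probes was found for 1.12% and 1.19% of all probes tested.

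**Figure D4:**
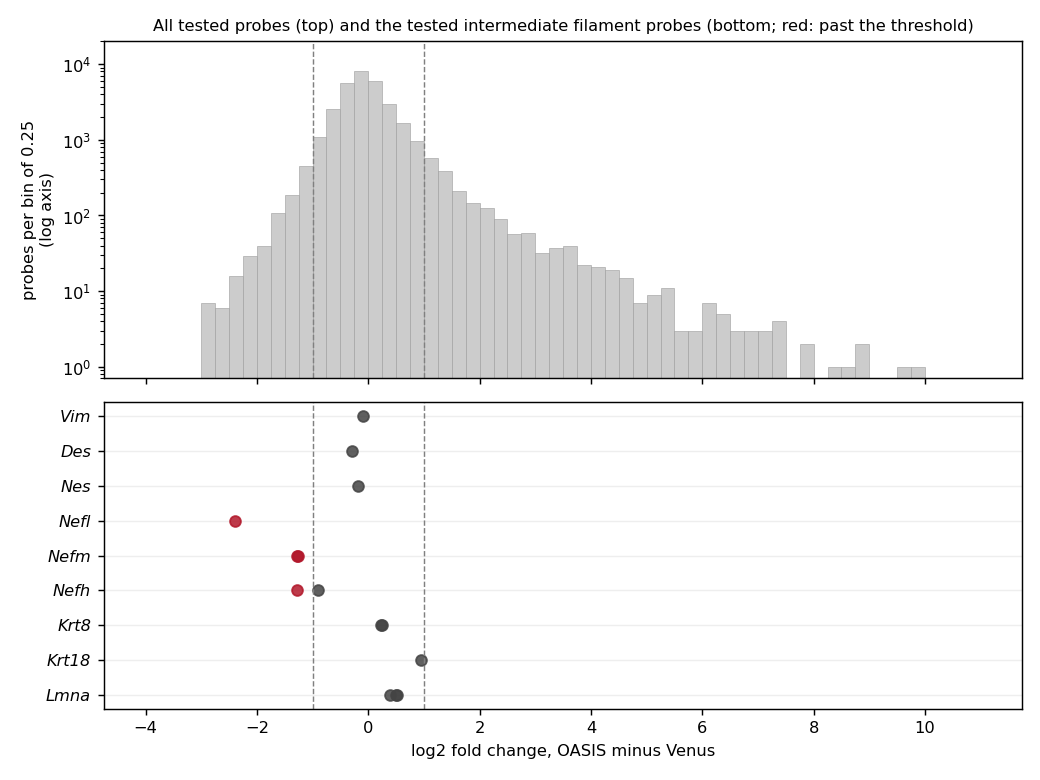
Top, number of tested probes (y axis, log scale) by log2 fold change in bins of 0.25. Bottom, the 14 intermediate filament probes on the same x axis, in a row per gene, red where past the threshold. The neurofilament probes lie in the lower tail, and the Vim, Nes and Krt8 probes lie within 0.3 of 0.

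A list of 27 other intermediate filament genes was read beside the family. Of these, 21 were tested. By the brightest probe of each gene 4 passed as higher and 0 as lower, with a median log2 fold change of 0.074 beside -0.056 over all 16318 genes tested, of which 6.21% were higher. By the mean of a gene's tested probes 5 passed as higher, and by the methods' t-test on the brightest probes 2 did. With only probes well above background on all 4 arrays, which leaves Krt23 out, 3 passed as higher. Ina encodes α-internexin, the fourth subunit of neurofilaments in the central nervous system, and it went the opposite way to its partners. Its normalised log2 intensity was -3.13 and -3.27 with Venus and 1.77 and 0.96 with OASIS, a log2 fold change of 4.57 (SE = 0.29 and adjusted p = 0.0037 by limma). By the methods' t-test Ina did not pass (adjusted p = 0.102). Prph, which encodes peripherin, the type III partner of neurofilaments in peripheral neurons, had a log2 fold change of -0.60 (limma adjusted p = 0.0343), short of the 2-fold limit.

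The other 3 genes of this list that rose by their brightest probe are keratins. Krt20, a type I keratin of gut and urothelium, went from -0.18 and 0.088 with Venus to 3.40 and 3.18 with OASIS, a log2 fold change of 3.33 (SE = 0.15 and adjusted p = 0.00212 by limma). Krt17, a type I keratin that wounded epidermis induces, went from -3.88 and -3.80 to -0.14 and -0.68, a log2 fold change of 3.42 (SE = 0.20 and adjusted p = 0.00343 by limma). Krt23 reached the background limit with OASIS only, and so entered the test through its OASIS arrays. It was at least 8.13-fold higher with OASIS. The limma adjusted p of 0.00555 belongs to the fitted log2 fold change of 3.39, which uses Venus signal not well above background, and not to the bound. Krt23 did not pass by the methods' t-test (adjusted p = 0.109). In each of these genes the arrays of the groups were far apart compared with arrays of a group. A type II keratin, Krt80, also rose on 1 of its 2 tested probes. Another of its probes was not tested. The dimmer tested probe of Krt80, A_51_P152023, went from -4.56 and -4.55 with Venus to -0.49 and -1.30 with OASIS, a log2 fold change of 3.66 (SE = 0.28 and adjusted p = 0.00555 by limma), while its brightest had 0.84 (limma adjusted p = 0.0316), short of the 2-fold limit. By their brightest probes, the other type I keratins tested, Krt10, Krt14, Krt15, Krt16 and the keratin-like Krt222, had log2 fold changes from -0.76 to 0.42, and the type II keratins Krt5, Krt6a and Krt7 had from -0.062 to 0.13, none past the threshold.

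Another list held proteins that tie filaments to junctions and membranes or keep them soluble. Of 22 linkers and chaperones, 18 were tested, 2 passed as higher and 0 as lower by the brightest probe, where 6.21% and 1.85% of all genes did, with a median log2 fold change of -0.061. Without the limit on the fold, 4 had a higher and 2 a lower level at an adjusted p under 0.1, beside 17% and 19.7% of all probes tested. The 2 that passed as higher were Pkp1, a desmosomal plaque protein, at 1.77 (SE = 0.24 and adjusted p = 0.0131 by limma), and Tchp, which encodes trichoplein, a keratin-binding protein, at 1.14 (SE = 0.13 and adjusted p = 0.00975 by limma). After normexp correction Pkp1 had 0.83 and no longer passed. By the methods' t-test neither gene passed, at adjusted p-values of 0.142 for Pkp1 and 0.109 for Tchp. Plec, the plakin that links vimentin and keratins to integrins and to the nucleus, had 0.20, and the small heat shock genes Cryab and Hspb1, whose proteins bind desmin and vimentin, had -0.078 and -0.20, none past the threshold.

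The partners of the nuclear lamina, which include the LINC complex, LEM domain proteins and the enzymes that farnesylate and cleave prelamin A, were 20 genes, all tested. None reached the 2-fold limit by the brightest probe, so that the count is 0 at any p, though 1 passed as higher without Venus replicate 2 and without OASIS replicate 2. The median log2 fold change was 0.084. Without the limit on the fold, 6 had an adjusted p under 0.1 and a higher level and 4 a lower one, beside 17% and 19.7% of all probes tested. Lemd3, which encodes the inner membrane protein MAN1, had 0.99 by its brightest probe (limma adjusted p = 0.00829) and -0.43 by its other (limma adjusted p = 0.161), and Tmem43, which encodes the lamin-binding protein LUMA, had 0.88 (limma adjusted p = 0.0101). The LINC complex genes went both ways, at 0.12 for Sun1, -0.44 for Sun2, -0.50 for Syne1, -0.29 for Syne2 and 0.62 for Syne3, by their brightest probes (limma adjusted p from 0.0193 for Syne3 to 0.464 for Sun1). The other tested Sun1 probes were all on the lower side, from -0.68 to -0.21, none past the threshold. Lmnb1 and Lmnb2, the B type lamins, had -0.35 (limma adjusted p = 0.345) and 0.27 (limma adjusted p = 0.13) by their brightest probes and a second Lmnb2 probe had -0.15, none past the threshold.

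**Figure D5:**
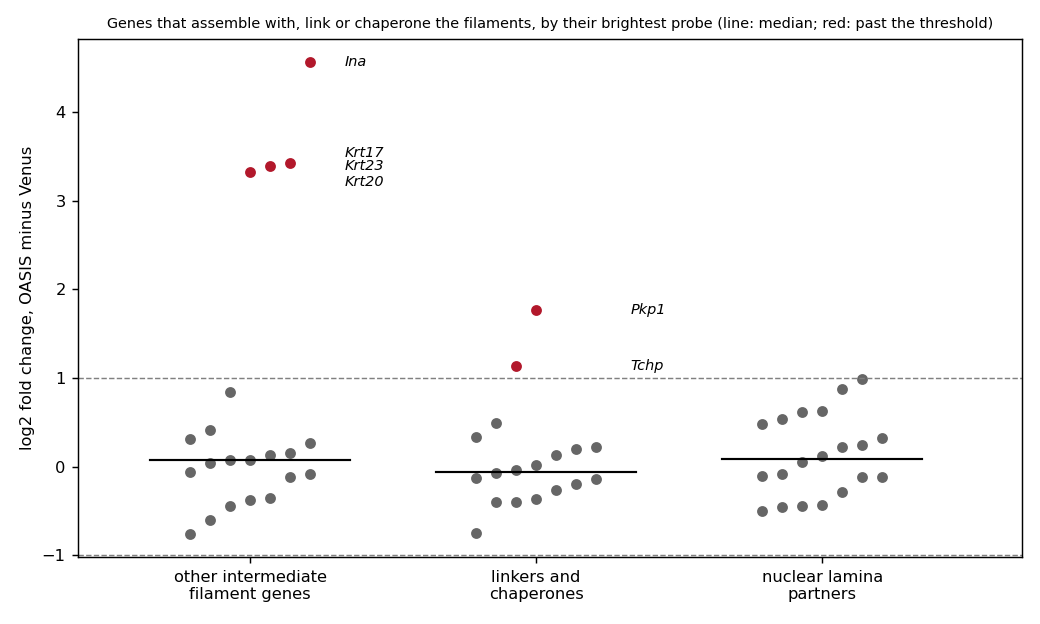
Log2 fold change between OASIS and Venus (y axis), by the brightest probe, of the 21 other intermediate filament genes, 18 linkers and chaperones and 20 lamina partners tested (x axis). Points are genes, black lines medians and dashed lines 2-fold. Red marks the 6 genes past the threshold by that probe, of which Ina, at 4.57, is the highest. Krt23 is drawn at its fitted value, though only its bound can be read.

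Genes next to the family on the chromosome were read as well. The order of genes came from RefSeq on assembly GRCm38.p6, which holds all 10 members. Of 48 protein-coding genes within 3 places of a member, members left out, 35 were tested and 8.57% passed, beside 8.06% of all genes. Dock5, the gene next to Nefl on the side away from Nefm, passed as lower on 1 of its 3 probes, its brightest, at -1.18 (limma adjusted p = 0.00969), while the others had 0.036 and -0.59. Gnrh1, the gene beyond it, had -0.54 and Kctd9 -0.39, short of the 2-fold limit. On the side of Nefm, Adam7 and Adamdec1 were not tested and Adam28 had -0.15 (limma adjusted p = 0.564). Gmppa, near Des, passed as higher by its brightest probe, at 1.03 (limma adjusted p = 0.0107), and its others had 0.88 and 0.79. Bcan, the gene next to Nes, encodes the proteoglycan brevican. Its 2 probes were well above background with OASIS only, and so entered the test through their OASIS arrays. Bcan was at least 251-fold higher on 1 of them and at least 32.3-fold higher on the other, whereas Nes itself had -0.19. The genes around Nefh that were tested lay between -0.42 and 0.24, none past the threshold.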

How the data were processed

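The labels put 2 samples in each group. The authors deposited, per array, the intensity of each spot as corrected for background by Agilent Feature Extraction 12.1.0.3, with the median spot and background intensities and a score of 0 or 1 for each of 3 spot marks (outlier, saturation, well above background). They also deposited a table of scaled intensity, which is the corrected intensity times 1 factor per array, with a detection score, gene symbols and bands. Positions are given as bands only, as that table lists them.

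From the corrected intensities, log2 values minus the 75th percentile of the array were computed without control and outlier spots, and repeated spots were averaged. To count as well above background, a probe needed that mark on 0.5 or more of its spots. limma 3.58.1 in R 4.3.3 fitted the difference between the groups over all 31598 probes that passed the filter. The genes named are the members, all with every probe, and, from the lists, those past the threshold. Members and lists were chosen with earlier results of these data known, and other list genes and the chromosomal neighbours were named after their values were seen. The alternatives were other normalizations, background corrections, filters, tests and thresholds, a block for the replicate number, and fits without 1 array. A slide block was not fitted, since there is 1 slide.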

Additional observations from a re-analysis of the deposited data

How the results depend on the processing

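With limma, 2641 probes, 4 intermediate filament probes and 6 genes of the other lists passed the threshold. After normexp correction, on the median spot intensity, these counts were 1222, 0 and 5, and with the methods' t-test 725, 1 and 2. With the t-test and an unadjusted p under 0.05, 2124 probes passed. Nefl was the member that still passed with the t-test, and the adjusted p was 0.17 and 0.204 for the Nefm probes and 0.1 for Nefh. Without a filter on dim probes 3 members passed, as the brighter Nefm probe had an adjusted p of 0.125. With the replicate block the counts were 2702, 4 and 6, and it changed no call of a member. No label says that the numbers pair the samples, whose deviations correlated across probes at r = 0.259. Without 1 array they were 2529 to 3287, 3 to 5 and 6 to 8, and the lone array of a group was then taken to vary as the arrays of the other group did. Vim lay between -0.18 and 0.0052 without 1 array, the Nefl fit between -2.46 and -2.32, and Krt18 between 0.33 and 1.59. Under the alternatives on 4 arrays, tested members kept direction and side of the threshold in 143 fits and direction only in 8. All 8 were fits of the 4 neurofilament probes that passed in the main fit, whereas the 143 include the members that did not pass. Ina lay between 3.92 and 4.57 under these alternatives, with an adjusted p of 0.102 by the t-test. Krt23, Tchp and Pkp1 no longer passed by that test either, at adjusted p-values of 0.109, 0.109 and 0.142. Beyond the offset, which shrinks folds of dim probes by construction, the cause was not tested. Signal near background limits Nefl, Des and Krt18.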
